A study of Zea mays with 24 samples.

Results

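The comparison is between 3 separate growths of the same 3 maize inbred lines, B73, Mo17 and Wf9. The submitters grew each line in the greenhouse 3 times, and these growths carry the numbers III, II and I. Its members are the 18 arrays of those 3 lines out of 24 arrays in the series. The 6 arrays of a further inbred, W23, were kept out of the main fit and entered only an alternative fit as the 4th line. Growth III holds 6 arrays, growth II holds 6 and growth I holds 6, that is 2 technical arrays of 1 RNA from each line. Each RNA was total RNA from leaves 3, 4 and 5, pooled over 6 to 10 plants, and was hybridised to the pilot Affymetrix maize array. No treatment, transgene or mutation separates the groups, and no planting date, light, temperature or plant age was given for any growth. The labels number the growths within each line and do not say whether growth III of B73 and growth III of Mo17 were raised side by side. The 2 arrays of each RNA were averaged first, so that the 3 lines served as the 3 replicates of a growth, with line as a block.

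Repeated growths of one inbred share their genome, so comparing them within a line sets inherited differences aside and leaves whatever else differed, handling of the RNA and arrays included. In maize leaves, photosynthesis is divided between mesophyll cells, which fix carbon dioxide into C4 acids, and bundle sheath cells, which run the Calvin cycle, and the transcripts of both machineries are among the most abundant in the tissue. Chaperones refold or hold damaged proteins in the cytosol and fold secreted proteins in the endoplasmic reticulum. Glutathione transferases join glutathione to toxic or oxidised compounds, and several maize members were first found through their induction by herbicide safeners.

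The deposited signals of all 24 arrays had a trimmed mean between 250.1 and 250.2, and log2 differences below are of signal plus 16. The technical arrays of 1 RNA correlated at 0.9936 or above on the log2 scale except for growth III of B73, whose first array correlated with its partner at 0.948 and held all 213 exact zeros of the table. Among the remaining arrays of the 3 lines, the ratio of 3′ to 5′ signal of the cyclophilin control had a median of 1.49 in growth III (5 arrays), 1.68 in growth II (6 arrays) and 1.80 in growth I (6 arrays). The cyclophilin ranges of the growths overlapped, as did those of the GAPDH control. The same ratio of the ubiquitin control set growth I apart. It was 1.76 to 1.98 there, against 1.44 to 1.66 in growth II and at most 1.59 in growth III. For the EF1A control, growth I lay above growth II without overlap but overlapped growth III. The 99th percentile of signal had a median of 4607 in growth III, 5830 in growth II and 5518 in growth I. Its growth III and growth II ranges did not overlap (3655 to 5250.0 against 5676 to 6623). W23 stood apart from the other lines, in that its samples numbered III and II were nearly alike. The part of these array differences in the results below was not tested. Seed markers were at or below background on every array of the 3 lines for 16 of 17 probe sets and pollen markers for 8 of 9, including the zein storage protein gz27. The root markers went the other way: of 3 probe sets, 0 were at or below background on every array. Cab-m7, a light-harvesting gene of leaves, read 5658 or more in every RNA sample of the 3 lines. The exception among the seed markers was vpp1, a proton pump gene that is not limited to seed.

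Samples with the same growth number deviated together in all 3 lines. Each RNA was expressed as its deviation from its own line's mean, over 3604 probe sets with a mean signal of at least 100. Growth III deviations correlated at 0.22 between B73 and Mo17, 0.41 between B73 and Wf9 and 0.62 between Mo17 and Wf9. For growth II the 3 correlations were 0.41, 0.31 and 0.59, in the same order of lines, and for growth I they were 0.36, 0.42 and 0.28. Every same-numbered pair was therefore positive. The highest correlation between these lines with different numbers was 0.2235, for growth II of B73 with growth I of Wf9. That is slightly above the lowest same-numbered one, 0.2195, for growth III of B73 with growth III of Mo17. These are correlations across probe sets, which are not independent, and deviations within a line sum to zero, which pulls different numbers apart. The heat map of deviations shows the 3 positive blocks along its diagonal.

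**Figure D1:**
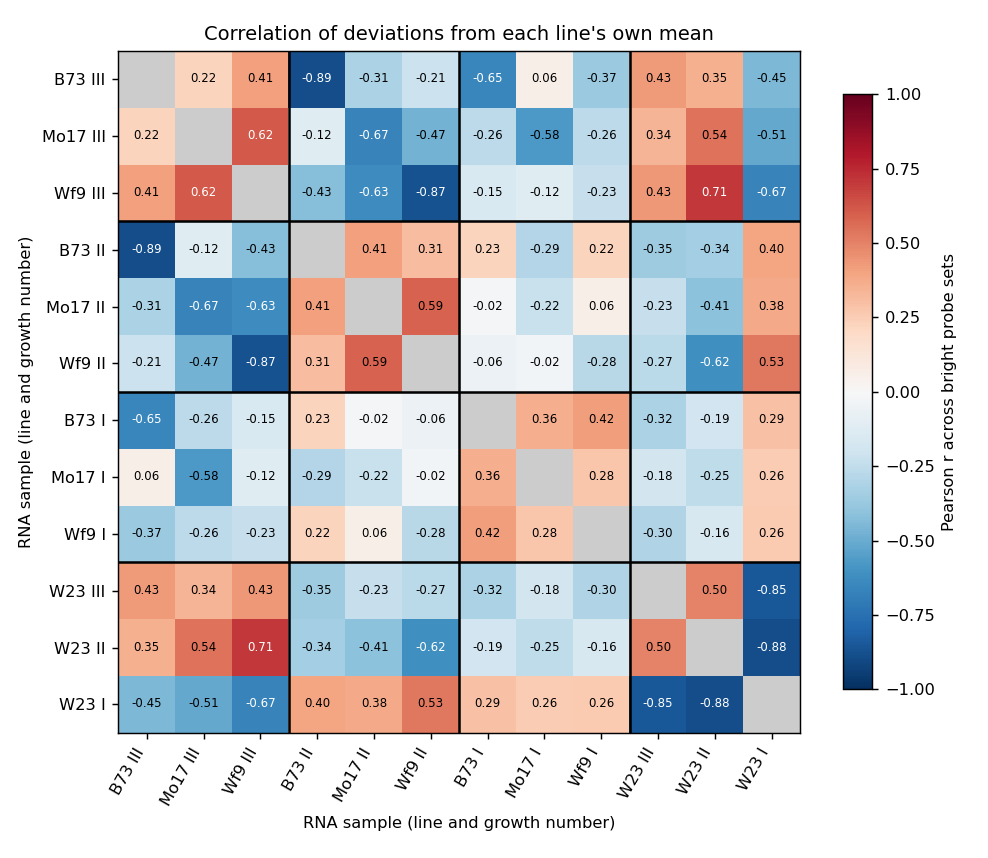
Pearson correlation, across 3604 bright probe sets, of each RNA sample's deviation from its own line's mean; rows and columns are line and growth, ordered III, II and I for the 3 lines tested, then W23. Same-numbered samples of B73, Mo17 and Wf9 are positive throughout (0.22 to 0.62), and W23 growths III and II both correlate with growth III of the other lines.

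The largest set of differences lay between growth III and growth II. Of 8346 probe sets tested, 524 were higher in growth III (6.28% called) and 266 were lower (3.19% called) at an adjusted p below 0.05 in limma with line as a block. All 790 had the same sign in each of the 3 lines, which a fit with line as a block favours by its construction. The median difference over the 524 was 0.90 in B73, 0.70 in Mo17 and 0.97 in Wf9 on the log2 scale, and over the 266 it was -0.92 in B73, -0.58 in Mo17 and -0.83 in Wf9. Signals of the 2 growths did not overlap for 388 of the 524 and 200 of the 266, which the choice of these probe sets favours. The share over all probe sets is not given here, so these counts only describe the calls. The other calls overlap because the lines differ in level. An F-test over all 3 growths called 408 probe sets (4.89% called), of which 392 were among the 790.

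The calls rest on all 3 lines and on the block. With the same fit but no line block, 0 probe sets passed (smallest adjusted p = 0.0567, with 1065 at an unadjusted p under 0.05). Leaving out B73 left 441 calls, while leaving out Mo17 or Wf9 left 0 calls each (1882 and 1274 at an unadjusted p under 0.05). Leaving out the Wf9 sample of growth II alone left 20 calls, and that of growth III alone left 27; leaving out single B73 or Mo17 samples left 269 to 938. All 790 kept their sign in each of these fits. Without the aberrant B73 array, 1082 probe sets passed, 745 of them among the 790; its exact zeros had removed 20 of the 790 from that array, where the value is then the second array's alone. The interaction of line with growth has no residual degrees of freedom here and was not tested.

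Choosing probe sets for their contrast of growths III and II tends to place growth I between them, so its position is given as a description. The median difference of growth III minus growth I was 0.52 over the 524 and -0.57 over the 266.

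Glutathione transferases included the largest increase of any probe set called. Of 52 probe sets for 29 of these genes, 8 were higher in growth III than in growth II and 0 were lower, and the 8 belonged to 4 genes, gst31, gst5, gst7 and gst2. The shares called over all probe sets were 6.28% higher and 3.19% lower. The list as a whole had a median difference of 0.11, against -0.02 over all probe sets, so most members stayed near the general level. The signal of gst31 was 1812, 249 and 368 in growth III of B73, Mo17 and Wf9, against 88.9, 14.9 and 84.6 in growth II and 389.6, 35.1 and 123 in growth I. Every growth III value lay above every growth II value, although B73 carried far more of this transcript than Mo17, and 4 of the 6 growth II arrays were above background. The difference of growth III minus growth II was 3.05 ± 0.37 (log2, SE, n = 3 lines; limma adjusted p = 0.0101), and 4 further gst31 probe sets passed with differences of 2.33 to 2.78. In bulk leaf RNA, more cells of a type and more RNA per cell cannot be told apart.

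The signal of gst5 was 2467, 511 and 2622 in growth III of B73, Mo17 and Wf9, against 484, 151 and 703 in growth II and 808, 231 and 853 in growth I. The growths overlapped across lines because Mo17 was lower throughout, but within each line growth III was the highest (1.95 ± 0.16 over growth II, limma adjusted p = 0.00318). For gst7 the signals were 1081, 204 and 642 in growth III, against 102, 57.5 and 196 in growth II and 204, 56.4 and 175 in growth I. The gst7 difference between growths III and II was 2.12 ± 0.29 (limma adjusted p = 0.0105). For gst2 the signals were 2312, 959 and 271 in growth III, against 169, 403 and 77.3 in growth II and 855, 633 and 105 in growth I. That difference was 2.16 ± 0.43 (limma adjusted p = 0.0238), with overlapping groups. The brightest member, gst1, did not pass: its signals were 2406, 2677 and 3491 in growth III, against 2099, 2298 and 2151 in growth II (0.36 ± 0.16, limma adjusted p = 0.2). In2-1, a maize gene known for its induction by herbicide safeners, had signals of 773, 299 and 803 in growth III, against 116, 115 and 237 in growth II and 284, 210.4 and 519 in growth I. It was higher in growth III than in growth II by 1.80 ± 0.21 (limma adjusted p = 0.0101), and the groups did not overlap. The 2 arrays of its B73 growth III sample read 434 and 1112.

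**Figure D2:**
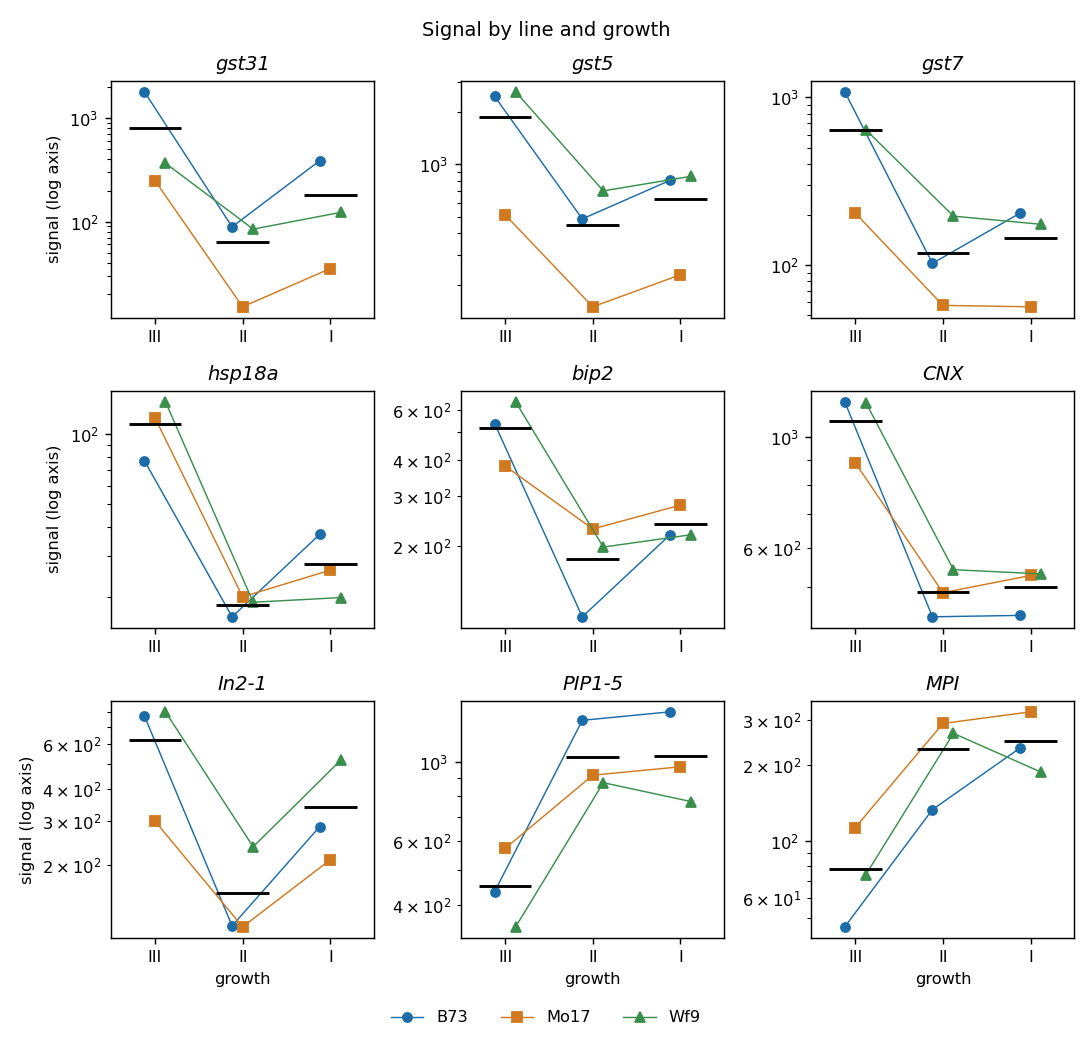
Signal (log axis) of 9 probe sets in growths III, II and I, with B73, Mo17 and Wf9 as points joined within a line and the mean of the 3 lines as a black bar. Within each line growth III is above growth II for the first 7 genes and below it for PIP1-5 and MPI.

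Heat shock proteins and chaperones had the largest share of called members of any list. Of 22 probe sets for 14 genes, 18 probe sets of 12 genes were higher in growth III than in growth II and 0 were lower, and the median difference was 1.09, against -0.02 over all probe sets. It was 1.10 in B73, 0.83 in Mo17 and 1.13 in Wf9. All 22 probe sets were higher in sign in each line, so leaving out any line could not change that sign. Of the 22, 13 passed without B73, 0 without Mo17 and 0 without Wf9, and 18 passed without the aberrant array. Several of the 22 are repeated probe sets of one gene, and over all probe sets 6.28% were called higher and 3.19% lower.

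Small heat shock proteins, which hold unfolded proteins in a soluble state, were at or near background in growth II. The signal of hsp18a was 76.9, 117 and 138 in growth III of B73, Mo17 and Wf9, against 16.5, 20.1 and 19.0 in growth II and 37.2, 26.1 and 19.9 in growth I, where the background level was 16.7. The difference between growths III and II was 1.85 ± 0.23 (limma adjusted p = 0.0101), and the groups did not overlap. For hsp22 the signals were 53.6, 40.1 and 90.1 in growth III, against 6.99, 5.99 and 14.3 in growth II, all 6 arrays of which were at or below background, so growth III was at least 3.47-fold higher (limma adjusted p = 0.0101). For hsp18f they were 42.6, 52.8 and 49.0 in growth III, against 10.7 to 13.4 in growth II, at least 2.87-fold higher on the same terms (limma adjusted p = 0.0101). These bounds set the growth II arrays at the background level, the 99th percentile of 44 unspiked control probe sets. The disaggregase gene hsp101 read 175, 139.8 and 89.3 in growth III, against 16.5, 85.2 and 30.7 in growth II and 48.1, 166 and 45.4 in growth I (1.33 ± 0.30 for growth III minus growth II, limma adjusted p = 0.0341). Its B73 growth III arrays read 299 and 51.7. A second hsp101 probe set did not pass, at 167, 50.6 and 27.4 in growth III, against 18.2, 36.1 and 15.6 in growth II (0.94 ± 0.32, limma adjusted p = 0.115), and the gene was picked after its values were seen.

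The same list holds folding factors of the endoplasmic reticulum, of which bip1, bip2, crt2, pdi, pdi12 and pdi6 were picked after their values were seen. The disulfide isomerase gene pdi did not pass: it read 126, 108 and 259 in growth III of B73, Mo17 and Wf9, against 89.2, 64.7 and 113 in growth II (0.71 ± 0.18, limma adjusted p = 0.0528). The list members pdi12 and pdi6 did pass. Their log2 differences in B73, Mo17 and Wf9 were 1.11, 0.60 and 0.47 for pdi12, and 0.83, 0.24 and 1.05 for pdi6. The signal of bip2, a luminal chaperone of the Hsp70 family, was 536, 381 and 639 in growth III of B73, Mo17 and Wf9, against 113, 229.7 and 199 in growth II and 219, 278 and 219 in growth I. It differed by 1.46 ± 0.26 (limma adjusted p = 0.0176). The related bip1 read 289, 145 and 276 in growth III, against 111, 68.7 and 89.5 in growth II (1.13 ± 0.19, limma adjusted p = 0.014), and its B73 growth III arrays read 118 and 459. Neither gene's growths III and II overlapped. The calnexin gene CNX, for a membrane-bound chaperone of glycoproteins, read 1176, 888 and 1172 in growth III, against 437, 488 and 542 in growth II and 439, 528 and 532 in growth I. Its probe set shares probes with related sequences; it was 1.10 ± 0.15 higher in growth III than in growth II (limma adjusted p = 0.0101) and 1.07 ± 0.15 higher than in growth I (limma adjusted p = 0.0492). The calreticulin gene crt2 read 471, 326 and 502 in growth III, against 187, 162 and 217 in growth II (1.10 ± 0.14, limma adjusted p = 0.0101). Of the cytosolic type, hsp70-4 was the brightest member and did not pass: 2305, 1181 and 3146 in growth III against 1855, 1117 and 2285 in growth II (0.28 ± 0.13, limma adjusted p = 0.23). The list member hsp70-5 did pass, with log2 differences of 1.05 in B73, 0.45 in Mo17 and 0.86 in Wf9.

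Genes of protein synthesis followed with smaller differences. Of 50 probe sets for 24 genes of ribosomal proteins and translation factors, 22 probe sets of 14 genes were higher in growth III than in growth II and 1 was lower, with a median difference of 0.56 against -0.02 over all probe sets. That median was 0.35 in B73, 0.51 in Mo17 and 0.72 in Wf9. Over all probe sets 6.28% were called higher and 3.19% lower. The acidic ribosomal stalk protein gene rpp2a-2 read 646, 398 and 547 in growth III of B73, Mo17 and Wf9, against 219, 245 and 227 in growth II and 313, 343 and 354 in growth I (1.11 ± 0.17 for growth III minus growth II, limma adjusted p = 0.0129). The large-subunit gene rpl17 read 209, 205 and 233 in growth III, against 125, 119 and 113 in growth II (0.77 ± 0.13, limma adjusted p = 0.0149). Both probe sets share probes with related sequences. The stalk gene rpp1a read 390.5, 369.6 and 252 in growth III, against 223, 217 and 114 in growth II (0.83 ± 0.14, limma adjusted p = 0.0144). None of these 3 genes overlapped between growths III and II. The member that was lower was eIF-5, an initiation factor gene, at 528, 544 and 529 in growth III, against 1104, 701 and 944 in growth II (-0.76 ± 0.16, limma adjusted p = 0.0277). The count of 22 became 30 without the aberrant B73 array, 15 under quantile normalisation, 11 without B73, and 0 without Mo17 and 0 without Wf9.

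**Figure D3:**
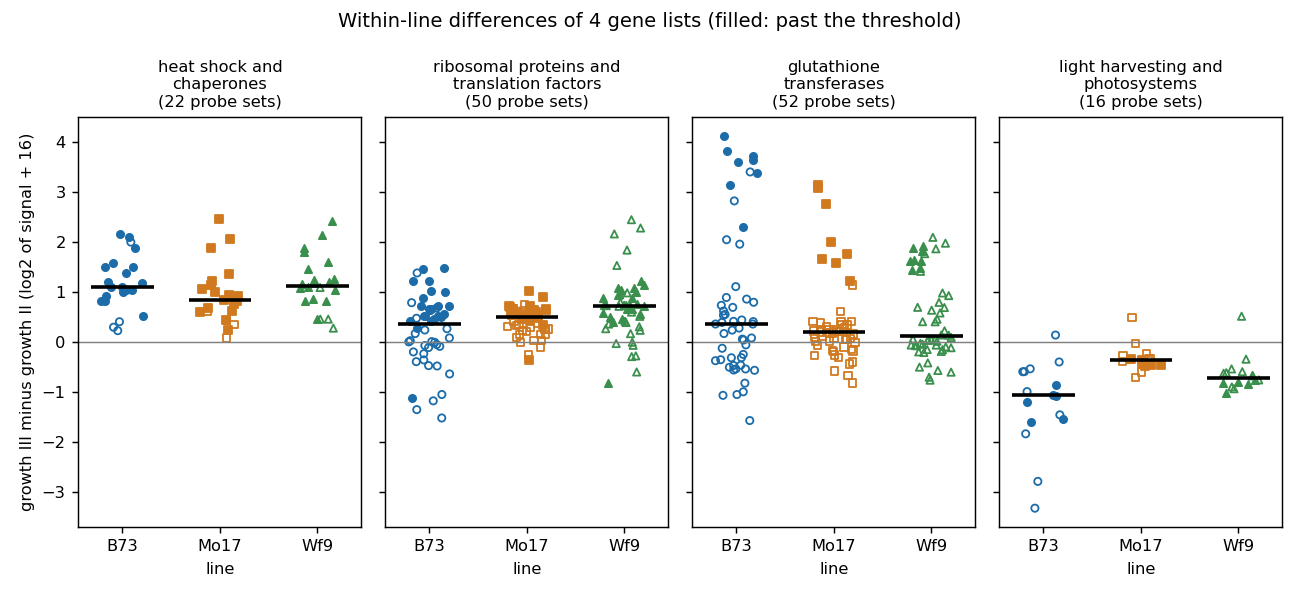
Growth III minus growth II within each line, on the log2 scale of signal plus 16, for the probe sets of 4 gene lists; filled points passed the threshold in the fit over all lines, and black bars are the medians of all probe sets of the list. The heat shock and chaperone medians are 1.10, 0.83 and 1.13 in B73, Mo17 and Wf9, and the light harvesting medians are -1.06, -0.35 and -0.72.

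Transcripts of light harvesting and the photosystems were lower in growth III than in growth II for 6 of 16 probe sets (4 of 11 genes) and higher for 0. Over all probe sets 3.19% were called lower and 6.28% higher. The calls of this list depended on the scaling: under quantile normalisation 0 of the 16 passed. The median difference was -0.78 with the submitters' linear scaling and -0.27 under quantile normalisation, and 15 of 16 against 13 of 16 probe sets were negative. It was -1.06 in B73, -0.35 in Mo17 and -0.72 in Wf9. These are among the brightest probe sets of the array, and 75 of the 675 with a mean signal of at least 1000 were lower in growth III (11.1%, with a median over the 675 of -0.23) while 40 were higher; the growth III arrays had the lower 99th percentiles given above. The part of that signal range in the difference was not tested beyond the quantile fit.

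The signal of PSBQ1, a subunit of the oxygen-evolving side of photosystem II, was 3889.6, 6201 and 5005 in growth III of B73, Mo17 and Wf9, against 8057, 8470.0 and 8932 in growth II and 7272, 8988 and 7523 in growth I. The growths III and II did not overlap (-0.78 ± 0.15, limma adjusted p = 0.022), but under quantile normalisation the difference was -0.26 (limma adjusted p = 0.178). The antenna gene lhcb5 read 3166, 4966 and 4106 in growth III, against 6688, 6933 and 6971 in growth II (-0.77 ± 0.15, limma adjusted p = 0.0234, and -0.39 with adjusted p = 0.0819 under quantile normalisation). Its first B73 growth III array was an exact zero, so that value is the second array's alone. The photosystem I subunit gene psah1 read 2707, 5817 and 5474 in growth III, against 7868, 7983 and 9569 in growth II (-0.93 ± 0.21, limma adjusted p = 0.0344, and -0.48 with adjusted p = 0.198 under quantile normalisation). Among the 7 bundle sheath and Calvin cycle probe sets, 2 were lower, both for rca1, the activator of Rubisco. It read 2540.1, 3126 and 2814 in growth III, against 4891, 4142 and 5390.1 in growth II (-0.76 ± 0.15, limma adjusted p = 0.0244, and -0.47 with adjusted p = 0.0574 under quantile normalisation). Of 7 probe sets for the C4 enzymes of the mesophyll 0 passed, with a median of -0.51 that became -0.02 under quantile normalisation. The plastid thioredoxin gene trm1 read 4443, 5812 and 5199 in growth III, against 7008, 7738 and 9167 in growth II (-0.63 ± 0.13, limma adjusted p = 0.0282, and -0.08 with adjusted p = 0.654 under quantile normalisation).

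Of the 28 named genes that were lower in growth III than in growth II, glk1, phot1 and Nkd1 were among those ranked highest by the smallest within-line difference. The signal of glk1, a transcription factor of chloroplast development in mesophyll, was 205, 495 and 305 in growth III of B73, Mo17 and Wf9, against 677, 713 and 912 in growth II and 339.7, 444 and 508 in growth I. It differed by -1.23 ± 0.22 between growths III and II (limma adjusted p = 0.018) with no overlap. The blue-light receptor gene phot1 read 446, 408 and 284 in growth III, against 663, 737 and 522 in growth II and 419, 490.2 and 288 in growth I (-0.74 ± 0.13 for growth III minus growth II, limma adjusted p = 0.0158). Growth II was the high one for phot1, since growths III and I overlapped; the B73 growth III value is again from the second array alone. Nkd1, a zinc finger transcription factor gene known from its role in endosperm, read 124, 189.7 and 147 in growth III, against 255, 394 and 266 in growth II and 165, 257 and 178 in growth I (-0.93 ± 0.12, limma adjusted p = 0.0101).

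Of 34 aquaporin probe sets for 28 genes, 1 was lower in growth III than in growth II and 0 were higher. Over all probe sets 3.19% were called lower and 6.28% higher, so 1 lower member is near the general share. The lower one was PIP1-5, a plasma membrane aquaporin, at 435, 573 and 347 in growth III of B73, Mo17 and Wf9, against 1302, 916 and 873 in growth II and 1375, 967 and 774 in growth I. Growth III stood below both other growths without overlap, by -1.19 ± 0.20 against growth II (limma adjusted p = 0.015) and by -1.19 ± 0.20 against growth I (limma adjusted p = 0.0642, which did not pass). Under quantile normalisation the first of these was -1.28 (limma adjusted p = 0.0181). The list's median was -0.01.

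Called defence genes went in both directions. Among 15 probe sets for 8 pathogenesis-related and defence genes, 2 were higher and 2 were lower in growth III than in growth II, with a median of 0.16, where 6.28% and 3.19% were called over all probe sets, and the 2 lower ones are probe sets of 1 gene. The thaumatin-like gene pr5 read 2006, 299 and 131 in growth III of B73, Mo17 and Wf9, against 268, 103 and 12.8 in growth II and 569, 479.7 and 56.7 in growth I (2.17 ± 0.38 for growth III minus growth II, limma adjusted p = 0.0161). The groups overlapped because the lines differ in level, and 4 of the 6 growth II arrays were above background. Both lower probe sets were of MPI, a proteinase inhibitor gene known to respond to wounding. It read 46.3, 113 and 74.1 in growth III, against 133, 289.9 and 265 in growth II and 232, 322 and 187 in growth I, with growth III below both other growths (-1.46 ± 0.24 for growth III minus growth II, limma adjusted p = 0.0137). The B73 growth III arrays read 13.3 and 79.3 for MPI. The 2 MPI probe sets were also the calls among 12 probe sets for jasmonate, ethylene and wound genes, where 0 were higher. Of 3 benzoxazinoid probe sets 0 passed; bx1 followed line rather than growth, at 73.9, 3462 and 30.8 in growth III and 134, 3731 and 12.5 in growth II.

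Among 61 probe sets for 53 genes of histones, chromatin and the cell cycle, 4 were higher and 3 were lower in growth III than in growth II, with a median of -0.05; these counts are near the 6.28% and 3.19% called over all probe sets, so they say nothing particular of the list. The higher ones included nfa103 and nfa104, of the nucleosome assembly protein family of histone chaperones. The signal of nfa103 was 228, 107 and 120.5 in growth III of B73, Mo17 and Wf9, against 41.6, 42.0 and 37.4 in growth II and 63.4, 53.8 and 48.8 in growth I (1.51 ± 0.21 for growth III minus growth II, limma adjusted p = 0.0105). For nfa104 the signals were 193, 126 and 148 in growth III, against 77.6, 67.2 and 53.6 in growth II (1.05 ± 0.16, limma adjusted p = 0.0122), on a probe set that shares probes with related sequences. The lower ones included the histone deacetylase gene Hda1, at 297, 208 and 256 in growth III, against 368, 318 and 422 in growth II and 496, 364 and 441 in growth I. The difference was -0.63 ± 0.13 (limma adjusted p = 0.0253), but it rests on the aberrant B73 array. The B73 growth III arrays read 103 and 489.9, and the second of these lies above B73 growth II. Without the first, the difference was -0.29 (limma adjusted p = 0.415).

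Named genes outside the lists were also higher in growth III. RGP, a reversibly glycosylated polypeptide linked to cell wall synthesis, read 1077, 599 and 1593 in growth III of B73, Mo17 and Wf9, against 301, 308 and 432 in growth II and 653, 557 and 656 in growth I. It differed by 1.52 ± 0.22 between growths III and II (limma adjusted p = 0.0119), and growth III overlapped growth I. In all, 89 named probe sets of 60 genes were higher and 32 of 28 genes were lower. The remaining 669 of the 790 carried no gene symbol.

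Besides the mesophyll C4 enzymes and benzoxazinoid synthesis given above, the lists with 0 calls in this contrast were nitrogen and sulphur assimilation (11 probe sets), starch and sucrose metabolism (19), phenylpropanoids (3), anaerobic and mitochondrial energy genes (43), homeobox and other developmental regulators (26), cuticular wax (3), metal and senescence genes (15), and the seed, pollen and root markers (17, 9 and 3). The abscisic acid list had 1 higher of 6, dbf1, a drought-responsive transcription factor gene, at 259.8, 570.3 and 452 in growth III, against 129, 353 and 228 in growth II (0.83 ± 0.19, limma adjusted p = 0.0356). A second dbf1 probe set did not pass, with log2 differences of 0.88 in B73, 0.13 in Mo17 and 1.10 in Wf9. The antioxidant list had 1 lower of 17, which was trm1, and the cell wall list 2 higher of 36, both for GRP. The cytoskeleton and reference list had 1 higher of 36, with a median difference of 0.61 that was -0.20 in B73, 0.45 in Mo17 and 1.54 in Wf9. Over all probe sets 6.28% were called higher and 3.19% lower, so counts this small say little of these lists.

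Probe sets without a gene symbol, named by the same rule, included calls at the smallest adjusted p of the contrast. Zm3.6680.1.A1_at read 87.9, 58.1 and 86.6 in growth III of B73, Mo17 and Wf9, against 648, 334 and 1099 in growth II and 191, 113 and 250 in growth I (-2.79 ± 0.21 for growth III minus growth II, limma adjusted p = 0.00318). Zm3.7361.1.A1_at read 10.8, 38.9 and 15.0 in growth III, against 114, 219 and 159.8 in growth II and 33.9, 83.3 and 40.2 in growth I (-2.30 ± 0.14, limma adjusted p = 0.00318). As 3 of its 6 growth III arrays were above background, the size of that difference is uncertain. Both showed growth III lowest and growth II highest in every line. Zm3.3569.1.A1_at read 166, 116 and 85.7 in growth III, against 57.4, 25.5 and 38.2 in growth II and 53.2, 18.4 and 17.9 in growth I (1.30 ± 0.19 for growth III minus growth II, limma adjusted p = 0.0111). It was also higher in growth III than in growth I, by 1.64 ± 0.19 (limma adjusted p = 0.0449).

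Far fewer probe sets separated growth III from growth I: 14 were higher (0.168% called) and 11 were lower (0.132% called), all 25 with the same sign in the 3 lines. The smallest adjusted p was 0.0449, close to the threshold, and the count was 1 with a pseudocount of 1, 178 without the aberrant B73 array, and 0 without any one of the lines. Because this contrast and the previous one share the growth III samples, their values are given side by side and no overlap is read from them. The 4 named genes that were higher were CNX and gst5, described above, and MNB1b and GRP. MNB1b, a gene for a high-mobility-group chromatin protein, read 2760.4, 3024 and 3011 in growth III of B73, Mo17 and Wf9, against 1684, 2208 and 2285 in growth II and 1342, 1331 and 1505 in growth I. It was 1.07 ± 0.13 higher in growth III than in growth I (limma adjusted p = 0.0449) and 0.52 ± 0.13 higher than in growth II (limma adjusted p = 0.0462). The glycine-rich protein gene GRP read 1053, 1136 and 1103 in growth III, against 594, 684 and 659 in growth II and 381, 528 and 624 in growth I, and was 1.10 ± 0.15 higher in growth III than in growth I (limma adjusted p = 0.0449). None of the 11 lower probe sets had a gene symbol. Among them, Zm3.5517.1.A1_at read 266, 271 and 185 in growth III, against 696, 858 and 730.0 in growth II and 565, 736 and 482 in growth I (-1.28 ± 0.13 for growth III minus growth I, limma adjusted p = 0.0449). It was also lower in growth III than in growth II, by -1.65 ± 0.13 (limma adjusted p = 0.00318), and its B73 growth III arrays read 159 and 372.

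Between growth II and growth I, 0 of 8346 probe sets passed in limma in either direction (0.0% called; smallest adjusted p = 0.0895), with 878 at an unadjusted p under 0.05. Array weights gave 37 calls and leaving out the aberrant B73 array gave 7. The named genes with the smallest p in this contrast are given as values only. The aquaporin PIP1-3 read 1487, 1339 and 924 in growth II of B73, Mo17 and Wf9, against 2570.5, 2436 and 1211 in growth I, a difference of -0.67 ± 0.14 (limma adjusted p = 0.298). The probe set named pip1-2 gave nearly the same signals, 1319, 1256 and 815 in growth II against 2401, 2361 and 1129.7 in growth I. For smt1 the signals were 194, 139.5 and 129 in growth II, against 368, 221 and 229 in growth I (-0.74 ± 0.14, limma adjusted p = 0.278). The remaining members of this group, In2-1 and phot1, have their signals above; their differences were -1.02 ± 0.21 (limma adjusted p = 0.288) and 0.68 ± 0.13 (limma adjusted p = 0.278).

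W23 was set beside these results without a test of its own. Its sample numbered III differed little from its sample numbered II: the SD of their log2 difference over the bright probe sets was 0.178, against 0.939 in B73, 0.525 in Mo17 and 0.716 in Wf9, and technical pairs of arrays other than that of B73 growth III had SDs of 0.0970 to 0.213. Of the 524 probe sets that were higher in growth III than in growth II, 24.6% had the same sign in W23 for III minus II, but 93.9% did so for III minus I and 94.1% for II minus I. Over all probe sets on the higher side of the same contrast the 3 shares were 38.1%, 62.9% and 67.5%. For the 266 lower ones the shares were 27.1%, 92.5% and 95.1%, and over all probe sets on the lower side they were 48.8%, 70.1% and 67.7%. Every share counts the sign of growth III minus growth II in the other lines. For II minus I the medians of B73, Mo17 and Wf9 over the called probe sets had the opposite sign. The signal of hsp18a in W23 was 122 in the sample numbered III, 165 in that numbered II and 17.8 in that numbered I, and that of MPI was 42.3, 38.4 and 405. With W23 as the 4th line, 0 probe sets passed in growth III minus growth II in limma (smallest adjusted p = 0.197, with 1528 at an unadjusted p under 0.05). All 790 kept their sign there, which their shared sign in the other lines makes likely beforehand. Whether a growth number means the same growth in W23 as in the other lines is not given by the labels.

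**Figure D4:**
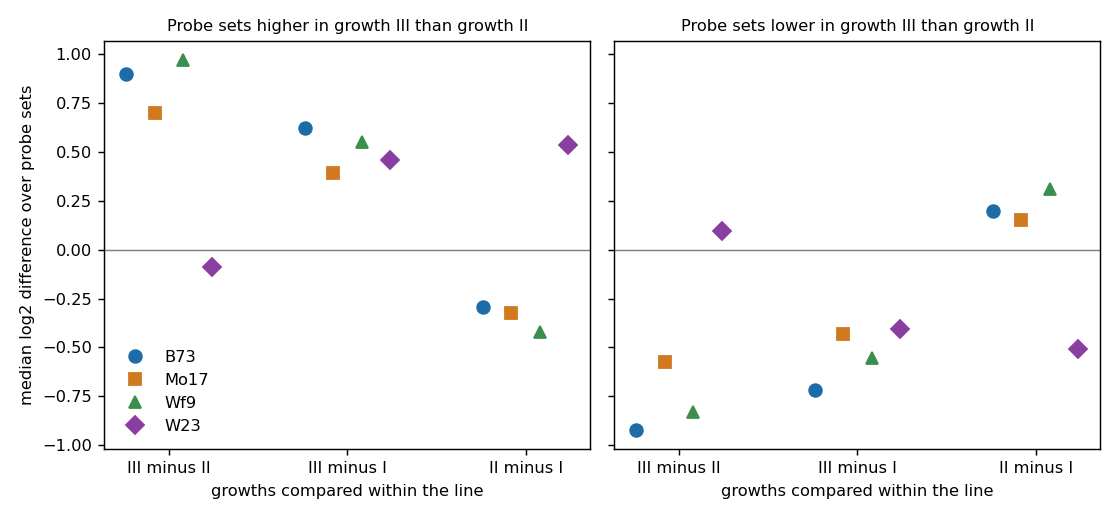
Median log2 difference between growths within each line, over the 524 probe sets higher and the 266 lower in growth III than growth II in the fit of B73, Mo17 and Wf9. For III minus II the 3 lines lie at 0.70 to 0.97 and W23 at -0.09 in the higher set; for II minus I they lie at -0.42 to -0.29 and W23 at 0.54.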

How the data were processed

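Total RNA from maize leaves was hybridised to 24 Affymetrix arrays, and the deposited table holds one signal intensity per probe set and array. Per the submitters' processing notes, the tools GCOS and MAS5 were used with no versions stated. The deposited intensity values had trimmed means (2% cut at each end) close to 250 on every array. The exact zeros, all on one array, were treated as missing. Signals were rescaled to a trimmed mean of 250, 16 was added, log2 was taken and the 2 technical arrays of each RNA were averaged. A model of growth plus line was fitted to the 9 RNA samples with limma 3.58.1 in R 4.3.3 (eBayes with a mean-variance trend), and p-values were adjusted by Benjamini-Hochberg over 8346 probe sets that are not controls, with a threshold of 0.05 for each contrast. Residual degrees of freedom were 4. Standard errors are those of the model, and p-values measure the spread between lines in their response; each growth of a line is 1 pool. The number of arrays limits the precision.

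The background level was the 99th percentile of 44 unspiked control probe sets. Line pairs the growths by design, and it was the block of the model. The platform annotation gave 862 probe sets 1 gene symbol, none several and 7613 none; 838 were matched to the RefSeq gene table of assembly Zm-B73-REFERENCE-NAM-5.0, whose synonyms supplied most names. Suffixes _s_at, _x_at and _f_at mark probes shared with other sequences. Antisense or paralogous signal cannot be told apart in such sets.

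Genes were named by rule: per contrast up to 10 named genes in each direction past the threshold with the same sign in every line, ranked by the smallest within-line difference, and per list the 3 smallest F-test p plus the brightest member; not all are printed. RGP, bip1, bip2, crt2, pdi, pdi12, pdi6, hsp70-5, eIF-5 and hsp101 fall outside the rule and were chosen after their values were seen. In the growth II minus growth I contrast, where no named gene passed, the 5 smallest p are given. The members and gene lists were chosen with earlier results of these data known. Lists were matched to gene names by pattern, wrong matches were removed by gene identity after values had been seen, and no list was tested. The list of the circadian clock found no probe set. The steps were tested on simulated data before use.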

Additional observations from a re-analysis of the deposited data

Results flagged for a closer look

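The samples of W23 were outside the main fit, and their growth differences stood apart from those of the other lines. Among probe sets higher in growth III than in growth II in the other lines, 24.6% had the same sign in W23 for III minus II, and among those lower 27.1% did; B73, Mo17 and Wf9 all moved one way there by the choice of these probe sets, and the difference between W23 and the other lines was not tested. Over all probe sets these shares were 38.1% on the higher side and 48.8% on the lower side. For III minus I, 93.9% of the higher and 92.5% of the lower probe sets had in W23 the sign of the III minus II call. For II minus I the shares with that sign were 94.1% and 95.1%, but there the other lines moved the opposite way. The II minus I median over the higher set was -0.29 in B73, -0.32 in Mo17, -0.42 in Wf9 and 0.54 in W23. Over the lower set it was 0.20, 0.15, 0.31 and -0.51. Over all probe sets the shares were 62.9% and 70.1% for III minus I, and 67.5% and 67.7% for II minus I. W23 has 1 RNA sample per growth number, so these shares have no replicate check.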

How the results depend on the processing

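The naming rule picked 60 calls, each 1 probe set in 1 contrast, and some of these probe sets have no gene symbol. They kept their direction under 15 other settings and 12 that leave out a line or an RNA (0 reversed). A call was lost in 617 cases and kept in 990. These calls had the same sign in every line to begin with, so a kept direction adds little. The counts of probe sets past the threshold moved more. With no replicate block for line they were 0 in the F-test, 0 higher and 0 lower in growth III minus growth II, and 0 in growth III minus growth I; with W23 as the 4th line all 4 were likewise 0. The first technical array alone gave 8, 164 higher, 69 lower and 0. Leaving out the aberrant B73 array gave 717 in the F-test, 178 in growth III minus growth I and 7 in growth II minus growth I, and array weights gave 866, 553 and 37. The second technical array alone gave 43 in growth III minus growth I and 3 in growth II minus growth I. Growth III minus growth I, with 25 calls, gave 1 with a pseudocount of 1, 5 with 64, 54 under quantile normalisation, 56 above background, 117 over bright probe sets, 0 with exact zeros kept and 143 without the mean-variance trend. Leaving out 1 line or 1 RNA gave 0 to 489 in the F-test, 0 to 616 higher and 0 to 322 lower in growth III minus growth II, 0 to 9 in growth III minus growth I and 0 to 7 in growth II minus growth I. Fits with fewer samples have fewer residual degrees of freedom; beyond that the cause was not tested. Signal over background limits 2000 of the 8346 probe sets, which never exceeded the background level in the 3 lines.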
